A study of Homo sapiens with 24 samples.

Results

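HT29 cells, a long-established human colon cancer line, were treated for 6 h with TRAIL together with the short-chain fatty acids propionate and acetate, and were compared with untreated cells (NT). The comparison rests on 8 of the 24 arrays of the series, chosen by their labels: 4 arrays of TRAIL+C3/C2 and 4 arrays of NT. TRAIL+C3/C2 cells received 100 ng/ml of Flag-tagged TRAIL, 2 µg/ml of anti-Flag M2 antibody, 30 mM propionate (C3) and 15 mM acetate (C2). The NT cells received none of these agents, and no group had the antibody alone. Where a value is set beside others, the C3/C2 arrays had the same acids without TRAIL, the TRAIL arrays had TRAIL and antibody without acids, and the SN and TRAIL+SN arrays had the culture supernatant of Propionibacterium freudenreichii, without or with TRAIL (4 arrays each). All samples come from this single line, so the values describe a cancer cell in culture and no other colon cell. The labels number the replicates 1 to 4 in each group and do not name the numbers that belong to one experiment. By the methods each group holds duplicates of 2 independent experiments, while the tests treat its 4 arrays as separate samples. The p-values measure the spread between these samples, which is in part technical, and can be too small for the number of experiments.

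TRAIL is a ligand of the TNF family. It binds the death receptors TNFRSF10A and TNFRSF10B, which recruit the adaptor FADD and the initiator caspase CASP8 and can start apoptosis, while CFLAR competes with CASP8 at the receptor and XIAP blocks caspases further down. The same receptors can also activate the transcription factor NF-kB, whose targets include chemokines, cytokines and its own inhibitors. Propionate and acetate are made by colon bacteria, serve as fuel for colon cells, and propionate is known to inhibit histone deacetylases, enzymes that take acetyl groups off histones.

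A set of promoters is shown because their genes belong to the lists with the highest shares of rises, and because 1 neighbour with the same letters was lower. The 250 bases before the RefSeq start site (GRCh38.p14) are given 5' to 3' on the strand of the gene, with matches to GGGA, any base, then TTTCC, a spelling of the binding site of NF-kB, in capitals. They lie at chr4:73869143-73869392 (plus strand) for CXCL1, chr4:74099196-74099445 (minus strand) for CXCL2, chr4:74038690-74038939 (minus strand) for CXCL3 and chr4:73998678-73998927 (minus strand) for CXCL5. Those of NFKBIA and TNFAIP3, which encode an inhibitor of NF-kB and a feedback enzyme of the pathway, lie at chr14:35404750-35404999 (minus strand) and chr6:137867009-137867258 (plus strand), with the match in the opposite orientation.
CXCL1: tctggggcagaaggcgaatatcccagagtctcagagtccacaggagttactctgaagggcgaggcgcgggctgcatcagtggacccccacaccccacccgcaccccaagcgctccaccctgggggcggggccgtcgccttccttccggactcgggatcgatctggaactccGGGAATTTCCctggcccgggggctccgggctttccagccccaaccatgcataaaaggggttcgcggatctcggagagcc
CXCL2: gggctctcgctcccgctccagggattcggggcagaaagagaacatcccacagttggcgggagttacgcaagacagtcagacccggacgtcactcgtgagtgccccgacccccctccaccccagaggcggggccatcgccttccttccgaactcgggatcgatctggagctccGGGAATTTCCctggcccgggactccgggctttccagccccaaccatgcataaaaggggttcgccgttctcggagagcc
CXCL3: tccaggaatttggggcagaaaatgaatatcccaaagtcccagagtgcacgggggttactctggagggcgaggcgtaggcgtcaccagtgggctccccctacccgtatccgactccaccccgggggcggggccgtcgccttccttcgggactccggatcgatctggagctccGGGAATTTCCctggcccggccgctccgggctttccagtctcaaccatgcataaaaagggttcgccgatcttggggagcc
CXCL5: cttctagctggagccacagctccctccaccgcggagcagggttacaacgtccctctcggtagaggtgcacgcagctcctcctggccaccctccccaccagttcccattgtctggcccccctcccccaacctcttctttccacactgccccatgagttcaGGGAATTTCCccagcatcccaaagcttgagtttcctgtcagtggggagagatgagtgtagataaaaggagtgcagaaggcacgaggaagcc
NFKBIA: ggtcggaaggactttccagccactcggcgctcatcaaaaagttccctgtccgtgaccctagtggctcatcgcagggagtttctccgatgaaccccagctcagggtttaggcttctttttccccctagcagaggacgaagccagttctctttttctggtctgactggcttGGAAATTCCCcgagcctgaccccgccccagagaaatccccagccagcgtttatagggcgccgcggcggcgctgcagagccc
TNFAIP3: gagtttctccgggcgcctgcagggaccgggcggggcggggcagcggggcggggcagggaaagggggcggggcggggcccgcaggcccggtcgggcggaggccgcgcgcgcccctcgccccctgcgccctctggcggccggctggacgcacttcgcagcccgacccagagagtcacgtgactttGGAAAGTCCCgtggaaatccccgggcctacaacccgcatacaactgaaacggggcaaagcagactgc

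In the chemokine promoters the match began 79 bases before the start site of CXCL1 and CXCL3, 78 before that of CXCL2 and 91 before that of CXCL5. Read on both strands, these letters were in 185 of the 35116 promoters of the table (0.527%). Of the tested members of the NF-kB and cytokine lists described below, 49 of 64 had a promoter in the table by symbol. The letters were in 13 of 32 such members that were higher in TRAIL+C3/C2, in 2 of 16 that were not called (CYLD and NFKB1) and in the 1 that was lower (CXCL5). CXCL5 was also low with TRAIL and with SN, as given below, and slide and treatment cannot be told apart. The looser spelling GGG, any 2 bases, then TTTCC, which contains every match of the first, was in 1.73% of all promoters, in 14 of the 32 members that were higher, with CCL20 added, and in 4 of the 16 that were not called, with IL1RN and TRAF3 added. The percents are of promoters, while a member was counted when any promoter of its symbol matched, so these shares are in unlike units. Members of the NF-kB list were also chosen as genes of that pathway. In all, 6 spellings were searched with the results known, and a match describes the letters only.

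Scaled to the 75th percentile of each array, 20689 genes were tested by limma over all 24 arrays, and a gene was called when it differed by a fold of 2 or more with an adjusted p under 0.05. TRAIL+C3/C2 differed from NT at 5004 genes (24.2% of those tested), with 3363 higher (16.3%) and 1641 lower (7.93%). The 4 arrays of each group did not overlap at 13233 genes (64%), so the lack of overlap noted for single genes below is common. Differences were larger upwards: 451 genes were higher and 63 lower by a fold of 8 or more, and 58 were higher and none lower by a fold of 32 or more. The balance of directions rested on the scaling. Scaling to the median of each array called 2290 genes higher and 3132 lower, quantile normalization 2731 and 2282, and scaling to 7 spike-in probes 1581 and 5889, with the median difference of all genes at -0.25, -0.09 and -0.61 on the log2 scale in place of 0.10. Log2 differences below are therefore relative to the 75th percentile. The 75th percentile of intensity was 453 to 518 on the TRAIL+C3/C2 arrays and 745 to 1010 on the NT arrays, and its part in the calls was not tested. NT replicate 1 lay on slide 1, the other NT arrays on slide 2 and the TRAIL+C3/C2 arrays on slide 4, so slide and treatment cannot be told apart. Without NT replicate 1, 3413 genes were higher and 1646 lower. The TRAIL+C3/C2 arrays correlated with each other at r = 0.993 to 0.995 across genes, the NT arrays at 0.993 to 0.995, and arrays of different groups at 0.939 to 0.945.

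**Figure D1:**
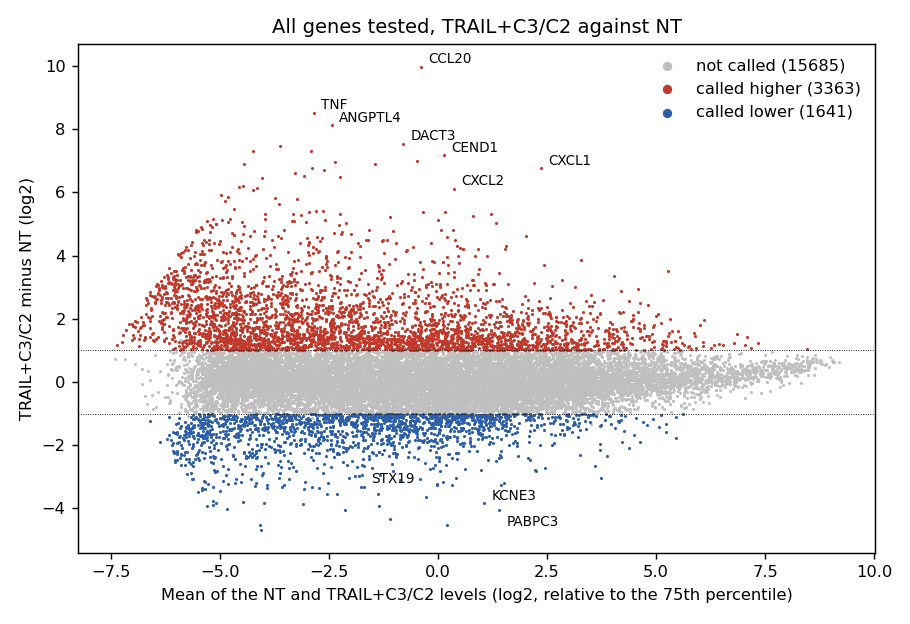
Each point is 1 of 20689 genes, with the mean of the NT and TRAIL+C3/C2 levels on the x axis (log2, scaled to the 75th percentile) and the difference TRAIL+C3/C2 minus NT on the y axis (log2). The 3363 genes called higher (red) reach 9.96 at CCL20, while the called falls (blue) stay smaller in size, and dotted lines mark a fold of 2.

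**Figure D2:**
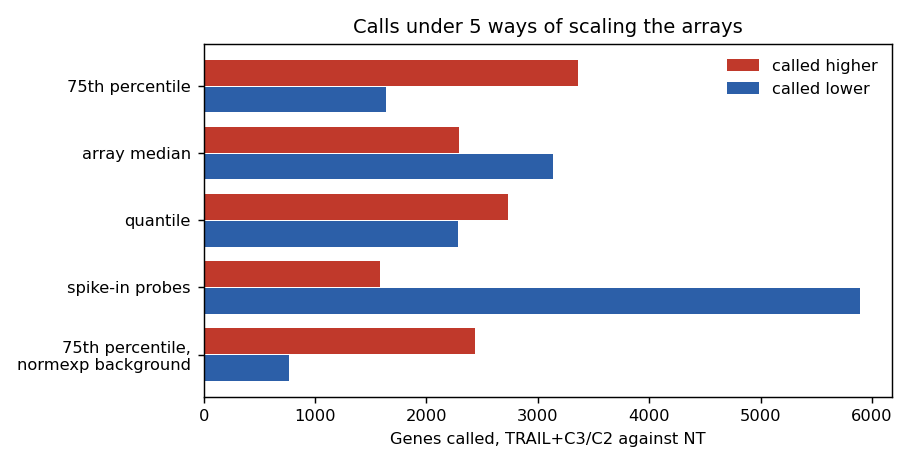
Bars give the number of genes called higher (red) and lower (blue) in TRAIL+C3/C2 against NT under 5 ways of treating the arrays. The higher calls outnumber the lower ones under the 75th percentile (3363 and 1641), quantile normalization and normexp background correction (2438 and 770), and not under the array median or the spike-in probes.

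The cells kept the transcripts of colon epithelium. All 13 of its markers, among them EPCAM, CDH1, VIL1 and KRT20, were well above background on all 8 arrays, and 1 of them, CDH17, was called higher by 1.08 (log2). The summed level of the list was 10.01 to 10.17 on the NT arrays and 10.51 to 10.57 on the TRAIL+C3/C2 arrays (log2, scaled to the 75th percentile). The summed levels of leukocyte markers (5 of 8 tested) were 0.65 to 1.03 and 1.67 to 2.03. Those of fibroblast markers (2 of 6 tested) were -3.01 to -2.45 and -0.96 to -0.54, and those of endothelial markers (4 of 5 tested) were -2.13 to -1.86 and -1.36 to -1.26. PECAM1 was called higher by 2.03. COL1A1 and CSF1R were called higher with no such NT array, and CSF1R was well above background on 1 TRAIL+C3/C2 array. PTPRC, the general leukocyte marker, differed by -0.03, and CD3E, MS4A1, COL1A2, COL3A1 and PDGFRB did not pass the filter on dim probes. In such bulk RNA, fewer cells of a type and less RNA per cell cannot be told apart.

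Chemokines and cytokines had the highest median difference of the 18 lists in the main fit. Of 50 listed, 37 were tested, with a median difference of 2.07 against 0.10 over all genes. In this list 22 were higher (59.5%, against 16.3% of all genes) and 2 lower (5.41%, against 7.93%). Only 21 of the 37 were well above background on all 8 arrays, and of these 10 were higher and 1 lower. With probes well above background on all 24 arrays, 8 were higher and 1 lower. The median was then 0.97, below the 1.24 of the NF-kB list. With normexp background correction the medians were 1.14 and 1.17, so the first rank was lost in both settings. CCL20, a chemokine that draws dendritic cells and lymphocytes to the gut epithelium, had levels of -5.73, -5.79, -4.85 and -5.13 on the NT arrays and 4.45, 4.59, 4.60 and 4.72 on the TRAIL+C3/C2 arrays (probe at chr2:228681100-228681836, hg19). Its groups lay far apart, with a difference of 9.96 ± 0.23 (SE of the log2 difference, limma adjusted p = 9.3e-19), although 2 of the 4 NT arrays were not well above background. TNF, the founding inflammatory cytokine of its family, stayed under that mark on every NT array (-7.07, -7.86, -6.59 and -6.86) and stood at 1.37, 1.53, 1.40 and 1.36 with TRAIL+C3/C2. Against the lowest level well above background on each array, it was at least 141-fold higher. Such bounds are used wherever a gene stayed under the mark on every array of a group.

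CXC chemokines, which mostly attract neutrophils, rose at 6 of 9 tested members. CXCL1 stood at -0.89, -0.90, -1.03 and -1.25 on the NT arrays and 5.64, 5.68, 5.83 and 5.83 on the TRAIL+C3/C2 arrays. It was higher by 6.76 ± 0.14 (adjusted p = 1.98e-19), and a second probe of the gene gave 6.63. CXCL2 was higher by 6.12 ± 0.14, from -2.77, -2.83, -2.50 and -2.67 to 3.30, 3.43, 3.51 and 3.45. CXCL3 followed with 4.50, CXCL8 was at least 54.1-fold and CXCL6 at least 7.34-fold higher, and CXCL10 was higher by 3.15 with 1 of 4 NT arrays well above background. CXCL5 alone among them was lower. It stood at -2.42, -1.66, -1.45 and -1.51 on the NT arrays and at -3.69, -3.45, -3.66 and -3.26 with TRAIL+C3/C2, a difference of -1.75 ± 0.20 (adjusted p = 1.44e-07). Its level was low in the other groups of slides 3 and 4 too, with differences from NT of -2.22 with TRAIL, -2.21 with SN and -2.27 with TRAIL+SN, and 0.08 with C3/C2, whose arrays shared the slides of NT.

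Among interleukins, IL17C, an epithelial cytokine of mucosal defence, rose from -5.53, -4.60, -4.75 and -4.74 to 2.37, 2.34, 1.70 and 1.57. The difference was 6.90 ± 0.21 (adjusted p = 6.87e-17). IL1B, a central inflammatory cytokine, was at least 25-fold and IL1A at least 2.50-fold higher, IL32 was higher by 4.49, and IL11, which signals through gp130, by 3.15. IL7, a growth factor of lymphocytes, was at least 1.24-fold lower and lost its call without NT replicate 1 (-1.02), NT replicate 2 (-1.21) or TRAIL+C3/C2 replicate 2 (-0.82), and IL15, IL18, IL33, IL1RN and IL23A were not called. All 6 tested ligands of the TNF family other than TRAIL itself were higher: TNF, TNFSF9 (5.11), LTB (2.73), CD70 (2.13), TNFSF15 (1.56) and TNFSF13B (1.07). The growth factor cytokines CSF3 and CSF2, which expand granulocytes, were at least 4.69-fold and at least 5.83-fold higher, while CSF1 (0.20) and LIF (-0.79) were not called.

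NF-kB genes rose without a called fall in the main fit, with a median of 1.24. Of 27 tested, 17 were higher (63%, against 16.3% of all genes) and 10 were not called. All of these 17 were well above background on all 8 arrays. The members grouped in the list as inhibitors of NF-kB were all higher. They were NFKBIA (3.35), NFKBIE (3.03), NFKBIB (1.08) and the nuclear proteins BCL3 (2.59) and NFKBIZ (1.78). NFKBIA was at 2.39, 2.27, 2.44 and 2.33 on the NT arrays and at 5.60, 5.60, 5.81 and 5.83 with TRAIL+C3/C2 (SE 0.13, adjusted p = 2.45e-15). Of the subunits, NFKB2 was higher by 2.66, RELB by 2.56 and REL by 1.04, while RELA (0.07) and NFKB1 (-0.53) were not called. The kinase of the alternative pathway, MAP3K14, was higher by 2.56, and the subunits of the IkB kinase complex CHUK, IKBKB and IKBKG were between 0.30 and 0.63 and were not called.

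TNFAIP3, an enzyme that shuts off NF-kB signalling by editing ubiquitin, had the largest difference of the NF-kB list. Its levels were -3.68, -3.69, -3.64 and -3.86 on the NT arrays and between 1.46 and 1.57 on the TRAIL+C3/C2 arrays, a difference of 5.22 ± 0.09 (adjusted p = 2.75e-20). ICAM1, which holds leukocytes on the cell surface, rose by 4.48 ± 0.10, from -1.95, -1.87, -1.92 and -1.69 to 2.71, 2.74, 2.52 and 2.52. TNFAIP2 rose by 3.52 ± 0.07, IER3 by 2.51, ZC3H12A, an RNase that degrades cytokine messengers, by 1.96, and SOD2, the mitochondrial superoxide dismutase, by 1.77. CYLD, TNIP2, TRAF3 and TNFAIP8 were not called. The array median and quantile normalization each called 1 member lower, beside 13 and 15 higher, and the spike-in scaling called 13 higher and 2 lower, with a median of 0.53.

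**Figure D3:**
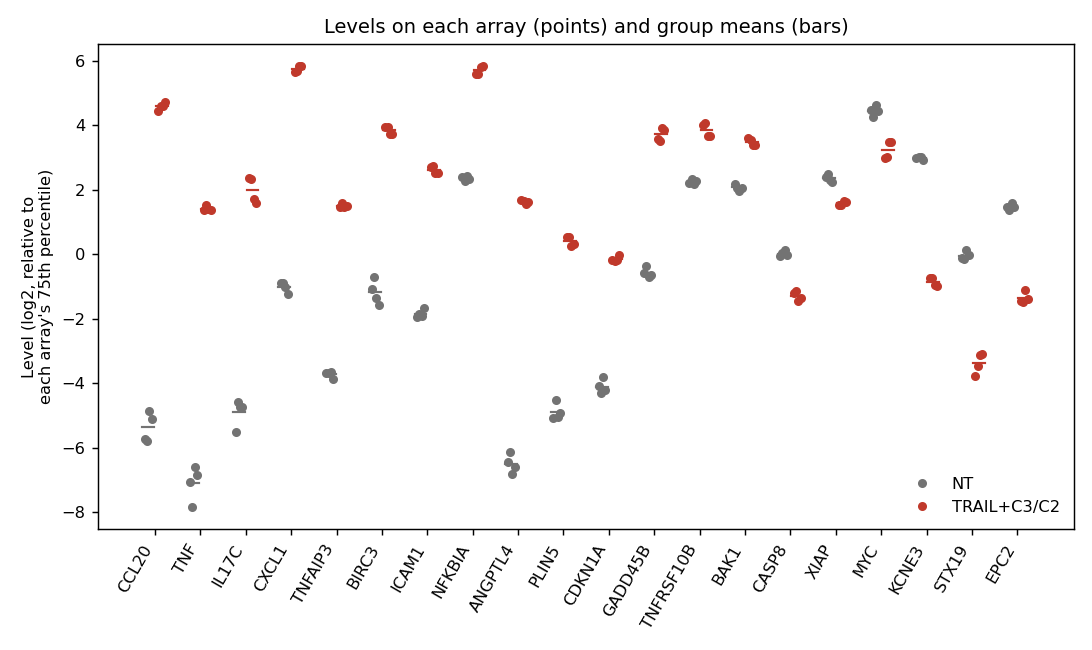
Points give the level of 20 genes on each of the 4 NT (grey) and 4 TRAIL+C3/C2 (red) arrays, and bars the group means (log2, scaled to the 75th percentile). The groups do not overlap at any of these genes, from CCL20 at the left, higher by 9.96, to the falls of MYC, KCNE3, STX19 and EPC2 at the right.

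The TRAIL receptor complex moved in both directions. Of 19 tested members, 4 were higher (21.1%, against 16.3% of all genes) and 2 lower (10.5%, against 7.93%), with a median of 0.01. The array median and spike-in scalings turned the counts to 3 and 6 and to 2 and 8. TNFRSF10B, a death receptor of TRAIL, was at 2.20, 2.32, 2.17 and 2.26 on the NT arrays and at 4.01, 4.07, 3.66 and 3.67 with TRAIL+C3/C2. The groups did not overlap, with a difference of 1.61 ± 0.10 (adjusted p = 9.9e-12), which was 0.90 and no longer called under the spike-in scaling. TNFRSF10A, the other death receptor, differed by -0.04 and FAS by -0.87, and neither was called, while TNFRSF25 was higher by 1.90. The decoy receptors TNFRSF10C and TNFRSF10D, which bind TRAIL without a death signal, were called higher, TNFRSF10D by 1.02. TNFRSF10C stayed under the background mark on the NT arrays (-7.61, -8.01, -7.88 and -7.74) and passed it on 3 TRAIL+C3/C2 arrays (-3.80, -3.45, -5.07 and -4.84).

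Inside the complex, CASP8 fell by 1.31 on the log2 scale (SE 0.08, adjusted p = 7.6e-12), from -0.06, 0.05, 0.12 and -0.04 to -1.21, -1.16, -1.44 and -1.35. A second CASP8 probe gave -0.78 and was not called. CRADD, an adaptor of caspase 2, fell by 1.66, and FADD (-0.41), RIPK1 (-0.74), TRADD (0.01) and TRAF2 (0.64) were not called. CFLAR, the competitor of CASP8, gave different answers by probe. The probe with its highest mean (chr2:202030660-202030717, hg19) differed by 0.52 ± 0.11 and was not called, while its other 3 probes were lower by -1.22, -1.18 and -1.22 and were called, with adjusted p from 3.3e-08 to 8.75e-08. The mean over the 4 probes was -0.78, and under the spike-in scaling the first probe was at -0.19.

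In the mitochondrial pathway and among caspases, 9 of 33 tested genes were higher (27.3%, against 16.3% of all genes) and 2 lower (6.06%, against 7.93%). Their median was 0.18. The balance turned with the scaling, to 6 and 5 on the array median (median -0.17) and to 5 and 8 with spike-ins (median -0.53). The rises gathered in the BH3-only proteins, which neutralise BCL2 or activate BAX and BAK1: 6 of 8 were higher, with a median of 1.46. BMF rose by 3.76 ± 0.15, from -1.64, -1.61, -1.18 and -1.17 to 2.40, 2.42, 2.29 and 2.32. BIK rose by 3.02 ± 0.07 and BBC3, also known as PUMA, by 2.76 ± 0.08. PMAIP1, BCL2L11 and BNIP3L were higher by 1.78, 1.14 and 1.13, and BID (-0.21) and BAD (0.66) were not called. The pore former BAK1 was higher by 1.41 ± 0.07, from 1.97 to 2.19 on the NT arrays to between 3.39 and 3.61, and by 0.70 under the spike-in scaling. BAX differed by -0.39, with 0.00 at a second probe, and was not called.

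The proteins that hold apoptosis back were divided. BIRC3, an NF-kB target that ubiquitinates signalling proteins of the TNF receptors, rose by 5.02 ± 0.12, from -1.09, -0.72, -1.36 and -1.56 to 3.95, 3.93, 3.73 and 3.74. XIAP was at 2.38, 2.49, 2.30 and 2.25 on the NT arrays and at 1.52, 1.54, 1.64 and 1.61 with TRAIL+C3/C2. The arrays did not overlap, yet the difference of -0.78 ± 0.06 (adjusted p = 3.92e-10) did not reach a fold of 2, while a second XIAP probe was called at -1.04. BCL2L1 differed by -0.82, under a fold of 2, and was at -1.17 under the array median and called there. MCL1 differed by 0.26, and by -0.09 under the array median and -0.46 under the spike-in scaling, and was not called under any of these scalings. BCL2L10 fell by 2.61 and NAIP by 1.40, the latter with a second probe at -0.49 that was not called. The effector caspase CASP6 differed by -0.72 and was not called.

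Immediate early genes and the feedback genes of the MAP kinases, which cells switch on within minutes of a stimulus, had a median of 0.82. Of 39 tested members, 18 were higher (46.2%, against 16.3% of all genes) and 2 lower (5.13%, against 7.93%). With spike-ins 12 were higher and 3 lower, with a median of 0.11. FOSB, a subunit of AP-1, rose by 3.81 ± 0.19, from -2.54, -2.52, -2.13 and -2.12 to 1.32, 1.31, 1.63 and 1.65. Of the 11 AP-1 subunits tested, 7 were higher, among them BATF3 (2.51), FOS (2.34), ATF3 (1.91) and JUND (1.87), while JUN (0.82), FOSL1 (0.64) and FOSL2 (0.51) were not called. Of the MAP kinase phosphatases, DUSP5 was higher by 3.43, DUSP1 by 2.69 and DUSP8 by 1.47, and DUSP10 was at least 8.81-fold higher. KLF4, a factor of epithelial differentiation, rose by 2.87. MYC, the growth-promoting transcription factor, fell by 1.21 (SE 0.12), from 4.47, 4.26, 4.62 and 4.43 to 2.97, 3.01, 3.47 and 3.48. SPRY2, which restrains growth factor signalling, fell by 1.46.

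Inhibitors of the cell cycle and growth arrest genes were higher at 12 of 25 tested members (48%, against 16.3% of all genes). None was lower in the main fit, against 7.93% of all genes, and the median was 0.81. The array median gave 10 higher and 1 lower, quantile normalization 12 and 1, and spike-ins 9 and 3 with a median of 0.10. GADD45B, a stress-induced regulator of growth arrest, rose by 4.29 ± 0.10, from -0.58, -0.37, -0.71 and -0.64 to 3.57, 3.51, 3.91 and 3.86. CDKN1A, the p21 inhibitor of cyclin-dependent kinases, rose by 3.96 ± 0.12 (adjusted p = 7.08e-17), from -4.09, -4.31, -3.83 and -4.22 to -0.19, -0.23, -0.18 and -0.03. CDKN1C rose by 3.86 and CDKN2B by 3.11, whereas CDKN1B (-0.40) and CDKN2C (-0.11) were not called. Of genes linked to p53, MDM2 (-0.20), SESN1 (-0.18) and RRM2B (-0.43) were not called, while SESN2 (2.16), PLK3 (2.26) and GADD45A (1.62) were higher.

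Genes of DNA replication and mitosis were mostly not called, with a median of -0.34. Of 51 tested, 2 were higher (3.92%, against 16.3% of all genes) and 6 lower (11.8%, against 7.93%). The replicative helicase subunit MCM6 fell by 1.34 (from 3.40 to 3.69 on the NT arrays to between 2.13 and 2.37). RRM2, which makes deoxynucleotides, and the mitotic genes TTK, CENPA, NDC80 and CCNA2 were lower by 1.10 to 1.21. CCNE1 and E2F2, which drive entry into S phase, were higher by 1.32 and 1.10. The count depended on the scaling, with 0 higher and 19 lower under the array median and 0 and 26 under the spike-in probes.

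Genes of lipid storage and the targets of PPAR, nuclear receptors that sense fatty acids, had a median of 1.01. Of 27 tested members, 14 were higher (51.9%, against 16.3% of all genes) and 1 lower (3.7%, against 7.93%). Of the 21 members well above background on all 8 arrays, 9 were higher and 1 lower. ANGPTL4, a secreted inhibitor of lipoprotein lipase, was under the background mark on all NT arrays (-6.43, -6.14, -6.82 and -6.59) and stood at 1.67, 1.64, 1.55 and 1.63 with TRAIL+C3/C2, at least 162.5-fold higher. CREB3L3, a transcription factor of fasting metabolism, was at least 88.5-fold higher. PLIN5, a lipid droplet protein that binds mitochondria, rose by 5.31 ± 0.16, from -5.09, -4.54, -5.04 and -4.93 to 0.54, 0.54, 0.25 and 0.31. All 5 perilipins were higher, with PLIN1 well above background on none of the NT and 2 of the TRAIL+C3/C2 arrays. PPARA and PPARD rose by 1.66 and 1.86, and PPARG (-0.14) was not called. CPT1A, which brings fatty acids into mitochondria for oxidation, was at 0.99, just under a fold of 2. Under the spike-in scaling 6 members were higher and 2 lower.

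Among genes of glucose uptake and hypoxia, 7 of 25 were higher (28%, against 16.3% of all genes) and none lower (median 0.61). SLC2A4, the insulin-responsive glucose transporter, was below background on all NT arrays (-7.82, -8.05, -7.93 and -7.80) and at -0.75, -0.95, -1.12 and -1.15 with TRAIL+C3/C2, at least 26.6-fold higher. MLXIPL, a transcription factor that senses glucose, rose by 4.18 ± 0.20. VEGFA, the angiogenic growth factor, was higher by 2.32 at the probe with its highest mean and by 0.16, not called, at another. With spike-ins 5 genes of the glucose and hypoxia list were higher and its median was -0.11. Of 19 tested genes that handle the acids themselves, 2 were higher (10.5%, against 16.3% of all genes) and 4 lower (21.1%, against 7.93%). The lactate exporter SLC16A3 (1.79) and the acetate-activating enzyme ACSS2 (1.15) rose. The receptor FFAR2 and the cobalamin genes MMAA and MMAB of propionate metabolism fell by 1.44, 2.03 and 1.11. SLC5A12 was at least 1.25-fold lower, and turned to 0.23 with normexp background correction. None of the 4 falls was called with normexp (FFAR2 -0.27 and MMAA -0.69), and 1 was called among probes well above background on all 24 arrays.

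Histone deacetylases were not called at 9 of 10 members, with HDAC1 at 0.07, HDAC2 at -0.03 and HDAC3 at 0.96, and HDAC10 was higher by 1.36. Of 11 histone genes of arrested or differentiated cells, 3 were higher (27.3%, against 16.3% of all genes). Among them were HIST3H2A (1.18) and HIST2H2BE (1.01, with a second probe at 0.85 that was not called). Both were under a fold of 2 on the array median (0.84 and 0.67). Of 27 genes of cholesterol synthesis, 7.41% were higher, against 16.3% of all genes, and none was lower. INSIG1 (1.06) and SREBF1 (1.04), which regulate the pathway, were called higher, and none of its 20 enzymes was called. Neither was called on the array median (0.71 and 0.70), with quantile normalization (0.90 and 0.84) or with spike-ins, and a second SREBF1 probe gave 0.43. On the array median 1 gene of the list was lower, and with spike-ins 6.

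Colon differentiation genes were higher at 4 of 27 and lower at 1, shares of 14.8% and 3.7% against 16.3% and 7.93% of all genes. Without TRAIL+C3/C2 replicate 4 the list had 2 higher, and it had 2 and 3 on the array median and 2 and 5 with spike-ins. ELF3, an epithelial transcription factor, rose by 1.93 ± 0.05, ANPEP, a brush border peptidase, by 1.95 with 2 of 4 NT arrays well above background, and GUCA2B, uroguanylin, by 1.01 ± 0.44 (adjusted p = 0.0472). SYP was called at 1.12 and was at 0.70, not called, without TRAIL+C3/C2 replicate 4. MUC2 (-0.02), TFF3 (-0.16) and VIL1 (-0.31) were not called. Of 15 Wnt genes tested, 6 were higher (40%, against 16.3% of all genes) and 3 lower (20%, against 7.93%), and 4 and 5 with spike-ins. DACT3, an antagonist of Wnt signalling, was at -2.28, -5.19, -5.55 and -5.24 on the NT arrays and at 2.89, 2.78, 3.13 and 3.06 with TRAIL+C3/C2, a difference of 7.53 ± 0.44 in which NT replicate 1 stood apart from the other NT arrays. The receptor EPHB2 rose by 2.50, while the stem cell receptor LGR5 and the ubiquitin ligase RNF43 fell by 1.44 and 1.35.

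Interferon-inducible genes moved in both directions, with 7 of 34 higher (20.6%, against 16.3% of all genes) and 5 lower (14.7%, against 7.93%). Their median was 0.43. The scaling turned the balance to 3 and 6 on the array median and to 2 and 9 with spike-ins. Without NT replicate 1, NT replicate 2 or TRAIL+C3/C2 replicate 4, 2 members were lower, and 3 without TRAIL+C3/C2 replicate 3, while 6 were lower with the replicate number as a block. The transcription factors IRF1 and IRF7 rose by 2.48 ± 0.10 and 1.98 ± 0.11. IFIT3, OAS2, IFI44, IFI44L and RSAD2, antiviral effectors, were lower. RSAD2 was at -3.10, -2.59, -4.08 and -4.19 on the NT arrays and on none of the TRAIL+C3/C2 arrays well above background, at least 3.13-fold lower. IFI44L was at -1.90, -1.51, -3.44 and -3.66 on the NT arrays and at -4.30, -3.85, -5.41 and -5.86 with TRAIL+C3/C2. Its treated arrays 1 and 2 lay just under NT arrays 3 and 4, and it was not called without NT replicate 1 (-1.99), NT replicate 2 (-1.86) or TRAIL+C3/C2 replicate 4 (-1.89). With the replicate number as a block its adjusted p was 2e-08. HLA-B (-0.06) and B2M (0.38) were not called.

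The amino acid and integrated stress response list, targets of ATF4 in large part, had a median of 0.29. It was higher at 11 of 32 members (34.4%, against 16.3% of all genes) and lower at 3 (9.38%, against 7.93%). The balance turned to 6 and 5 on the array median (median -0.06) and to 5 and 7 with spike-ins (median -0.42). CEBPB rose by 2.44 ± 0.06, and the feedback genes CHAC1, DDIT4 and PPP1R15A by 2.04, 1.87 and 1.68. SLC7A11, the cystine importer, fell by 1.46, and ATF5 and NUPR1 by 1.28 and 2.00. NUPR1 was at -0.56, -0.81, 1.18 and 1.23 on the NT arrays and at -2.44, -2.53, -0.96 and -1.02 with TRAIL+C3/C2. In both groups numbers 1 and 2 lay below numbers 3 and 4, and treated arrays 3 and 4 lay just under NT arrays 1 and 2. The amino acid synthesis enzymes ASNS (-0.02), PSAT1 (-0.43) and PHGDH (0.48) were not called. Of 32 heat shock and oxidative stress genes, 12.5% were higher and 6.25% lower, against 16.3% and 7.93% of all genes. HSPA1A, HSPA1B, DNAJB1 and HMOX1 were higher by 1.17 to 1.69 and OSGIN1 and MT1M lower by 1.48 and 2.72. NQO1 (-0.96) and 9 of the 10 metallothioneins were not called. This list had 1 higher and 3 lower on the array median, and 0 and 7 with spike-ins.

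**Figure D4:**
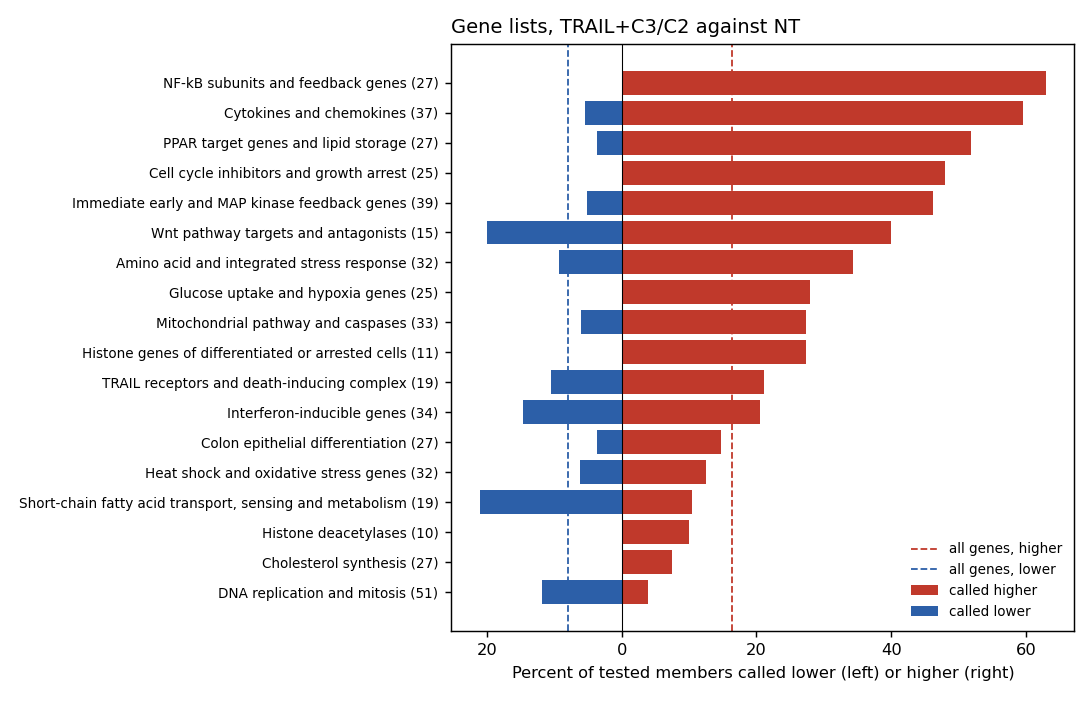
For each gene list, with the number of members tested in brackets, bars give the percent called higher (red, right) and lower (blue, left) in TRAIL+C3/C2 against NT. Dashed lines mark the percent of all genes called higher (16.3) and lower (7.93), and the NF-kB and cytokine lists extend furthest, to 63 and 59.5 percent.

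Over all genes, the largest rises among protein-coding genes well above background on all 8 arrays were DACT3, CEND1, KREMEN2, IL17C, CXCL1, CXCL2, FSCN1, C9orf169 (CYSRT1 in RefSeq), PLIN5 and TNFAIP3. CEND1, a protein of neurons that leave the cell cycle, was at -3.20, -3.61, -3.51 and -3.49 on the NT arrays and at 3.94, 3.83, 3.58 and 3.51 with TRAIL+C3/C2, higher by 7.17 ± 0.11 (adjusted p = 4.32e-21). KREMEN2, a receptor of the Wnt antagonists of the DKK family, rose by 6.98 ± 0.11, and FSCN1, which bundles actin, by 5.37 ± 0.12, from between -2.72 and -2.28 to between 2.81 and 2.92. TMEM121, RRAD and SH2D3C, with no NT array well above background, were at least 74.6-fold, 57.0-fold and 35.1-fold higher. RRAD, a small GTPase of the RGK family, was at -0.56 and -0.51 on TRAIL+C3/C2 replicates 1 and 2 and at 0.70 and 0.81 on replicates 3 and 4.

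The largest falls were smaller. KCNE3, which assembles with a potassium channel of the colon epithelium, was at 2.98, 3.00, 3.00 and 2.93 on the NT arrays and at -0.73, -0.75, -0.97 and -0.98 with TRAIL+C3/C2 (probe at chr11:74166486-74166545, hg19). It fell by 3.84 on the log2 scale (SE 0.12, adjusted p = 6.7e-17). STX19, a syntaxin of membrane fusion, fell by 3.32 (SE 0.21), KIAA1199 (CEMIP in RefSeq), which breaks down hyaluronan, by 2.93 (SE 0.09), EPC2, a subunit of a histone acetyltransferase complex, by 2.83 (SE 0.10), and the homeobox gene HOXB8 by 2.56 (SE 0.14). HOXB7, ITGA2 and SMURF1, with no TRAIL+C3/C2 array well above background, were at least 7.38-fold, 5.87-fold and 5.78-fold lower, and the latter pair was not called with normexp background correction (-0.78 and -0.87).

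Other falls were shared by the groups of slides 3 and 4. PABPC3, an intronless relative of the poly(A)-binding protein gene PABPC1, was at 2.44, 3.56, 3.90 and 3.80 on the NT arrays and at -0.70, -0.69, -0.52 and -0.56 with TRAIL+C3/C2, a difference of -4.04 ± 0.26. Its difference from NT was -3.82 with TRAIL, -3.92 with SN and -4.17 with TRAIL+SN, all on slides 3 and 4, and 0.18 with C3/C2. ANP32C gave -2.87 with TRAIL+C3/C2, -2.77 with SN, -2.27 with TRAIL and -0.50 with C3/C2. MT1M and AKR1C4 gave -2.72 and -2.53 with TRAIL+C3/C2, -2.27 and -2.76 with SN, and -0.98 and -0.55 with C3/C2, and a second AKR1C4 probe gave -0.71 with TRAIL+C3/C2. ITGA2 and SMURF1, above, gave -2.37 and -1.99 with SN and -0.38 and -0.29 with C3/C2. PABPC3 and ANP32C resemble other genes closely and their probes may read these too. CXCL5, above, was likewise low in the groups of slides 3 and 4 and near NT with C3/C2. For these genes, as for all others in the comparison with NT, slide and treatment cannot be told apart.

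**Figure D5:**
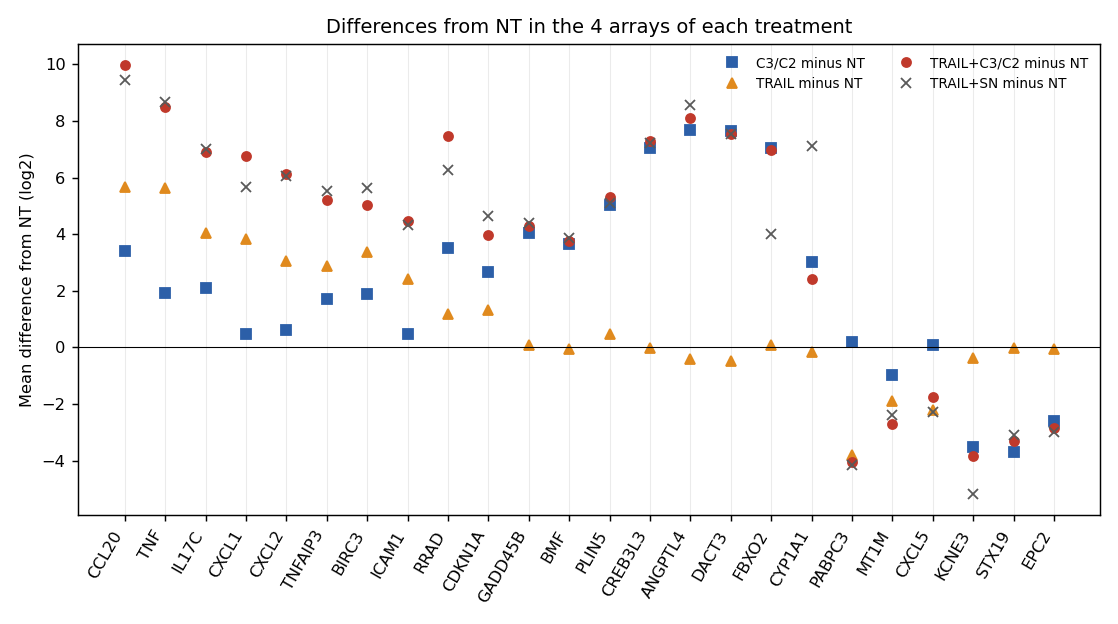
Symbols give the mean log2 difference from NT of 24 genes in C3/C2 (squares), TRAIL (triangles), TRAIL+C3/C2 (circles) and TRAIL+SN (crosses), 4 arrays each against the same 4 NT arrays. CCL20 to RRAD stand higher with TRAIL+C3/C2 than with either single treatment, DACT3 stands near its C3/C2 value, and PABPC3 is low in each group shown of slides 3 and 4.

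Set beside the single treatments, which share the NT arrays as control, the members fell into different patterns. The mean level of TNF was -5.18 with C3/C2, -1.47 with TRAIL and 1.41 with TRAIL+C3/C2. Differences from NT with C3/C2, TRAIL and TRAIL+C3/C2 were 3.40, 5.67 and 9.96 at CCL20, 0.47, 3.85 and 6.76 at CXCL1, and 1.72, 2.89 and 5.22 at TNFAIP3. They were 7.11, -0.22 and 7.17 at CEND1, 4.06, 0.08 and 4.29 at GADD45B, and -3.52, -0.36 and -3.84 at KCNE3. The mean level of ANGPTL4 was 1.17 with C3/C2 and 1.62 with TRAIL+C3/C2, and it stayed under the background mark on the TRAIL arrays. The direct tests between treated groups follow.

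Against C3/C2 alone, TRAIL+C3/C2 differed at 772 genes (3.73% of those tested), with 331 higher (1.6%) and 441 lower (2.13%). The arrays lay on different slides, and the spike-in scaling gave 140 and 1767. Higher members came from the NF-kB list (12 of 27, none lower) and from the cytokines (17 of 37, with CXCL5 lower), with medians of 0.97 and 0.82 against 0.04 over all genes. TNF was at -4.91, -5.29, -5.13 and -5.40 on the C3/C2 arrays, and was higher by 6.59 ± 0.24 with TRAIL+C3/C2 (adjusted p = 3.99e-14). CCL20 was at -2.36, -2.20, -1.68 and -1.64 there and was higher by 6.56 ± 0.23. CXCL1, CXCL2, ICAM1 and TNFAIP3 were higher by 6.29, 5.50, 4.01 and 3.50, and of the apoptosis genes BIRC3, PMAIP1 and BBC3 by 3.12, 1.67 and 1.07. Immediate early genes were higher at 13 of 39 and lower at none. None of the 27 genes of lipid storage and PPAR, of the 51 of replication and mitosis and of the 19 of the TRAIL receptor complex was called in this comparison. With 3.73% of all genes called, few or no calls are common in lists of this size. TNFRSF10B differed by 0.61, under a fold of 2. The largest falls were PABPC3, TWSG1, ANP32C and CCNYL1, by 4.22, 2.90, 2.37 and 2.25. TWSG1, which binds bone morphogenetic proteins, had differences from NT of -1.36 with SN, -2.58 with TRAIL and 1.06 with C3/C2.

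Against TRAIL alone, TRAIL+C3/C2 differed at 4328 genes (20.9%), with 3053 higher (14.8%) and 1275 lower (6.16%), and with 1859 and 3271 on the array median. The TRAIL arrays lay on slide 3 and the TRAIL+C3/C2 arrays on slide 4, so slide and the added acids cannot be told apart. Genes of lipid storage were higher at 14 of 27 and lower at none (median 1.16), growth arrest genes at 12 of 25 with 1 lower, and cytokines at 16 of 37 with 2 lower. CEND1, KREMEN2, C9orf169 and FSCN1 had the largest rises among genes well above background in both groups, of 7.38, 6.29, 5.21 and 5.11. TNF was at -1.78, -1.55, -1.27 and -1.29 with TRAIL alone, and was higher by 2.89 ± 0.24 with TRAIL+C3/C2 (adjusted p = 1.26e-09). CXCL1 and CCL20 were higher by 2.92 and 4.29. The NF-kB list was higher at 7 of 27 with NFKB1 lower by 1.42, and NFKB2 (0.28), RELB (-0.38) and BCL3 (0.72) were not called. LTB, a membrane-anchored ligand of the TNF family, was lower by 2.63, although it was higher than in NT, and UBD, an interferon-induced ubiquitin-like modifier, was lower by 5.32 with 1 of 4 TRAIL+C3/C2 arrays well above background. KCNE3, STX19, CLCF1 and EPC2 had the largest falls, of 3.48, 3.30, 2.82 and 2.76. CLCF1, a cytokine that signals through gp130, was not lowered by TRAIL alone, at 0.50 from NT.

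TRAIL+SN shares slide 4 with TRAIL+C3/C2, so this comparison lies within a slide. TRAIL+C3/C2 differed from it at 731 genes (3.53%), with 529 higher (2.56%) and 202 lower (0.976%), and with 348 and 363 on the array median. None of the 27 NF-kB genes was called, with a median of -0.14. With 3.53% of all genes called, few or no calls are common in a list of this size. TNF, IL17C and CXCL2 differed by -0.15, -0.10 and 0.05 with standard errors of 0.24, 0.21 and 0.14. CXCL1 was higher by 1.11 ± 0.14 (adjusted p = 2.48e-06). FBXO2, a ubiquitin ligase subunit that recognises glycoproteins, was at 1.31, 1.09, 1.01 and 1.05 with TRAIL+C3/C2 and at -1.60, -1.65, -2.12 and -2.04 with TRAIL+SN, higher by 2.97 ± 0.32. TXNIP, an inhibitor of glucose uptake, was higher by 2.13 and TMEM229A by 2.06.

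The largest fall against TRAIL+SN was that of CYP1A1. This enzyme, a target of the aryl hydrocarbon receptor, was at -1.81, -1.94, -1.31 and -1.30 with TRAIL+C3/C2 and at 3.06, 3.06, 3.15 and 3.19 with TRAIL+SN. The groups lay apart by -4.71 ± 0.25 (adjusted p = 2.34e-11), while CYP1A1 was higher by 2.42 than in NT. CYP1B1 and the keratin KRT17 were lower by 2.91 and 2.81. CHAC1 was lower by 3.11 (SE 0.35), and the amino acid and integrated stress response list was lower at 10 of 32 members and higher at 1, with a median of -0.57 against 0.06 over all genes. Immediate early genes were lower at 4 of 39 and higher at none.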

How the data were processed

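Total RNA of HT29 cells was labelled with Cy3 and hybridised singly to Agilent whole human genome arrays. The authors extracted spots with Agilent Feature Extraction, which subtracts a background estimate, and deposited an intensity per spot that is not normalized between arrays. The mean signal and local background intensity, deposited in the same files, served for normexp (offset 50) only. The deposited series table gives each spot as an intensity over the array median, and its 24 columns of flags were not used. Genome coordinates of probes are hg19.

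Outlier spots and controls were left out, spots of a probe averaged as log2, and the 75th percentile of each array subtracted. Of 50599 probes, 27957 were well above background on all arrays of a group, 21 of them were left out for a missing value, and the probe with the highest mean stood for a gene (20689 genes). The number of arrays limits the precision, and the median SE of a log2 difference was 0.11. Means of 6 groups were fitted with limma 3.58.1 (R 4.3.3, statmod 1.5.0, 18 residual degrees of freedom), with p adjusted by Benjamini-Hochberg. Tests were checked on simulated arrays. A gene under this mark on every array of a group has only a bound, set by the lowest level so marked on each array. Alternatives were other scalings, background corrections, filters, probe rules, fits, thresholds, slide as a random block, the replicate block and leaving out each array. Same-numbered NT and TRAIL+C3/C2 arrays deviated from their group means with correlations of 0.11 to 0.19 across genes, against -0.18 to 0.15 for different numbers. The replicate block was tried because every same-numbered pair was over 0.1. These ranges overlap, and arrays of different numbers can be duplicates of the same experiment. This check therefore cannot decide whether the numbers pair the arrays. The main fit used no pairing.

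Members and lists were chosen with earlier results of these data known. Genes named are the 10 largest rises and falls well above background on all 8 arrays and not overlapping, the 6 largest bounds of rise and 3 of fall, the 4 largest called members of each list with up to 2 called against its majority, 8 apoptosis genes of the study, and the 4 largest differences each way between treated groups, without Y-linked genes. Other members are given to account for a list. Of the gene names, 14611 accessions were found in RefSeq tables, and 1964 have another symbol there. Some genes that this rule names are not reported here.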

Additional observations from a re-analysis of the deposited data

Results flagged for a closer look

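Of 228 sets of 4 arrays checked, 2 for each of 114 genes named, 8 held an array far from the other 3, where chance alone marks about 1 set in 20. On NT replicate 1, the sole NT array of the first slide, DACT3 was at -2.28 (others -5.55 to -5.19), IL17C at -5.53 (others -4.75 to -4.60) and MT1M at 0.77 (others 1.33 to 1.44). DUSP10 was at -6.85 on NT replicate 3 (others -5.84 to -5.77) and DACT1 at -7.01 on NT replicate 2 (others -7.86 to -7.73), neither well above background on any NT array. Among TRAIL+C3/C2 arrays, SYP was at -3.18 on replicate 4 (others -4.91 to -4.86), BAX at 2.98 on replicate 2 (others 3.22 to 3.26) and CLCF1 at -1.78 on replicate 3 (others -2.27 to -2.22). Their causes were not tested.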

How the results depend on the processing

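Counts higher and lower are given in the order NT, C3/C2, TRAIL and TRAIL+SN as the group compared with TRAIL+C3/C2. Leaving out each array gave 3249 to 3413 and 1631 to 1663, 314 to 346 and 415 to 476, 2974 to 3111 and 1253 to 1317, and 506 to 565 and 183 to 231. On the array median, 3132 were lower than NT, 1859 higher and 3271 lower than TRAIL, and 348 and 363 differed from TRAIL+SN, where quantile normalization gave 311 lower. Spike-in scaling gave 1581 and 5889, 140 and 1767, 1866 and 3226, and 312 and 400. With normexp, 770 were lower than NT, then 167 and 147, 1583 and 617, and 83 and 70. Without the filter on dim probes 1433 were higher than C3/C2. With probes well above background on all 24 arrays, 2220 were higher than NT, 168 and 206 differed from C3/C2, 1855 were higher than TRAIL, and 196 and 113 differed from TRAIL+SN. With no minimum fold the counts were 8249 and 6113, 4413 and 2916, 7712 and 5875, and 4488 and 3297, and tested against a fold of 2 they were 2172 and 818, 101 and 149, 1856 and 583, and 80 and 42.

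Against NT, directions turned at MCL1 (-0.09) and TXNIP (-0.08) on the array median, at CFLAR (-0.19), MCL1 (-0.46) and TXNIP (-0.45) with spike-ins, at IL7 (0.28) and SLC5A12 (0.23) with normexp, and at CFLAR over its probes (-0.78). The replicate block gave 3362 and 1643 against NT, 338 and 444, 3053 and 1281, and 536 and 207, and changed no call of a named gene. Slide as a random block gave 3357 and 1638 against NT. The cause of these shifts was not tested. Dim probes limit both directions: 282 genes called lower had no TRAIL+C3/C2 array well above background, and 535 called higher had no such NT array.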

Other observations

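Further gene families were read from the start of their names. Small nucleolar RNA genes (SNORA and SNORD), which guide the modification of ribosomal RNA, had a median difference from NT of 0.59 with TRAIL+C3/C2. They were higher at 44 of 216 (20.4%, against 16.3% of all genes) and lower at 3 (1.39%, against 7.93%). Zinc finger genes (ZNF), mostly transcriptional repressors, were higher at 42 of 433 and lower at 65 (median -0.12). HOX genes, which set position along the body axis, were higher at 3 of 28 and lower at 7, and genes of potassium channels (KCN) were higher at 13 of 38 and lower at 1.

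Solute carriers (SLC) were higher at 62 of 270 and lower at 15, and cytochromes P450 (CYP) at 14 and 4 of 40. Cytoplasmic ribosomal proteins (RPL and RPS) were higher at 5 of 109 and lower at 1, with a median of 0.38, mitochondrial ones at 1 and 3 of 77, and proteasome subunits (PSM) at 1 and 0 of 47. Over all genes, 16.3% were higher and 7.93% lower. These families were chosen with results known, and near-identical members can share a probe.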
